A study of Homo sapiens with 66 samples.

Results

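The BCL2 family decides, at the outer mitochondrial membrane, whether a cell commits to apoptosis. The genes described here are 9 of its members, chosen by name in the deposited count table: the survival genes MCL1, BCL2 and BCL2L1, the pore-forming genes BAX and BAK1, and the BH3-only genes BCL2L11, BID, BAD and PMAIP1. All 9 were present among 13331 genes, and all 9 passed the filter on low counts that left 12515 genes. Survival proteins hold BAX and BAK1 and the BH3-only proteins in check, BAX and BAK1 perforate the membrane when released, and BH3-only proteins trigger that step either by binding the survival proteins or by activating the pore-formers. MCL1 is known for a short-lived mRNA and a short-lived protein, and for its importance to the survival of myeloid leukaemia cells. PMAIP1, also called NOXA, is the BH3-only protein that binds MCL1 with preference.

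KBM7 is a near-haploid human cell line from chronic myeloid leukaemia. In 9 engineered lines a dTAG degron was on CDK9 or on 1 of the Mediator subunits MED14, MED6, MED10, MED28, MED31, MED26, MED12 and MED1, and each line received 500 nM dTAG7, which recruits the tagged protein to a ubiquitin ligase, or DMSO. Wild-type cells received 100 nM dBET6, a degrader of BET bromodomain proteins, 250 nM THAL-SNS-032, a degrader of CDK9, 500 nM dTAG7, or DMSO. All treatments lasted 6 h, each of the 22 groups had 3 libraries (replicates A, B and C, wells treated in triplicate, so that p-values measure a spread that may be technical), and the 3 wild-type treatments share 1 set of DMSO libraries. CDK9 is the kinase that releases paused RNA polymerase II, and Mediator relays signals from transcription factors to the polymerase, with MED14 as its backbone. Only RNA was measured, so loss of the tagged proteins was not checked here.

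Libraries held 439261 to 4337368 counts of endogenous genes and 10950 to 72684 spike-in counts. CPM are given on the spike-in scale, in which spike-in totals stand for library size and wild-type DMSO libraries keep their usual CPM on average. A log2 fold change is given ± SE with 3 libraries per arm, on this scale unless TMM (a scaling that sets the bulk of genes to no change) is named. A gene was called where the Benjamini-Hochberg adjusted p of edgeR's quasi-likelihood test over all tested genes was under 0.05, and every adjusted p below comes from that test. Relative to spike-ins, 19.2% of endogenous RNA was left with dTAG7 in the CDK9 line, 11.3% with dBET6, 17.6% with THAL-SNS-032 and 63.2% with dTAG7 in the MED14 line. In these bulk samples fewer cells and less RNA per cell cannot be told apart. Messages of the tagged genes were called lower in their own line for CDK9, MED14 and MED10, at -3.06 ± 0.70, -0.52 ± 0.21 and -0.57 ± 0.18, and were not called in the other 6 lines. Of all genes 95.3%, 63.3% and 19% were called lower in the CDK9, MED14 and MED10 lines. With TMM these messages were not called (adjusted p 0.774, 0.437 and 0.0662). MED28 was called lower in its own line with TMM (-0.38, adjusted p 0.00895), where 4.36% of genes were called lower. All 12 markers of the blood lineage were in the table (summed 1332 CPM in wild-type DMSO), all 5 fibroblast markers were absent from it, and 2 of 5 epithelial (33.5 CPM), 3 of 5 T cell (14.3 CPM) and 5 of 5 B cell markers (72.9 CPM) were present. In the MED6 line, dTAG7 replicate A had a log2 ratio of endogenous to spike-in counts of 6.52, against 6.82 in both other dTAG7 libraries. In the MED12 line, DMSO replicate B stood at 6.71, against 7.03 and 6.97.

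The 3′ untranslated regions of MCL1 and PMAIP1 carry the AU-rich heptamer TATTTAT, a motif of unstable messages, and these sites are shown because MCL1 and PMAIP1 are the members with the most copies. In the longest annotated region of MCL1 (2824 bases) it occurs 3 times, and in that of PMAIP1 (1553 bases) also 3 times. Of genes whose region has a length between 0.8 and 1.25 times that of the member, 8.4% hold at least 3 copies at the length of MCL1 and 3.4% at that of PMAIP1. The sites follow with 8 flanking bases, on the sense strand, from GENCODE 29 transcripts on hg38, the heptamer in capitals and its first base numbered from the first base after the stop codon.
MCL1, base 1551: tctacagaTATTTATatcaattc
MCL1, base 2166: tacctatgTATTTATcgttcttg
MCL1, base 2194: aagccgctTATTTATatcatgta
PMAIP1, base 1219: aataatttTATTTATtttgccta
PMAIP1, base 1232: attttgccTATTTATaattaaag
PMAIP1, base 1467: ccatctggTATTTATggtctaat
The shorter pentamer ATTTA was counted 10 times in MCL1, 5 times in PMAIP1, 13 times in BCL2, 8 times in BCL2L11, 3 times in BCL2L1 and 2 times in BID, and it is not in the annotated regions of BAX, BAK1 and BAD. BCL2 (5279 bases) and BCL2L11 (4480 bases) have much longer regions, with 1 and 2 heptamers. Which of the annotated ends KBM7 cells use was not tested.

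Over the 12 comparisons, each of treated cells with DMSO cells of the same line, 39 of the 108 member values were called lower, 2 were called higher and 67 were not called, while 33.5% of all tested values were called lower and 0.766% higher. All 9 members fell in the CDK9 line, with dBET6 and with THAL-SNS-032, where 95.3%, 97.1% and 96.2% of all tested genes were called lower. In the MED14 line 6 members fell (63.3% of all genes called lower) and PMAIP1 rose (1.7% called higher). In the MED6 line 3 members fell (18.4% called lower; none of the 3 was called by limma on the loess-normalized values or with those libraries fitted alone), in the MED10 line 2 (19%), and in the MED28 line 1 (4.07%), and in the MED31 line PMAIP1 rose (0.495% called higher). No member was called in the MED26 line (3.14% of genes called), the MED12 line (4.97%), the MED1 line (0%) or wild-type cells with dTAG7 (0%). In these 4 comparisons 1 of the 36 member values had an unadjusted p under 0.05, BID in the MED12 line, and DESeq2 and limma called none of the 36. With TMM 15 values were called lower and 10 higher, against 9.28% and 6.96% of all tested values.

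**Figure D1:**
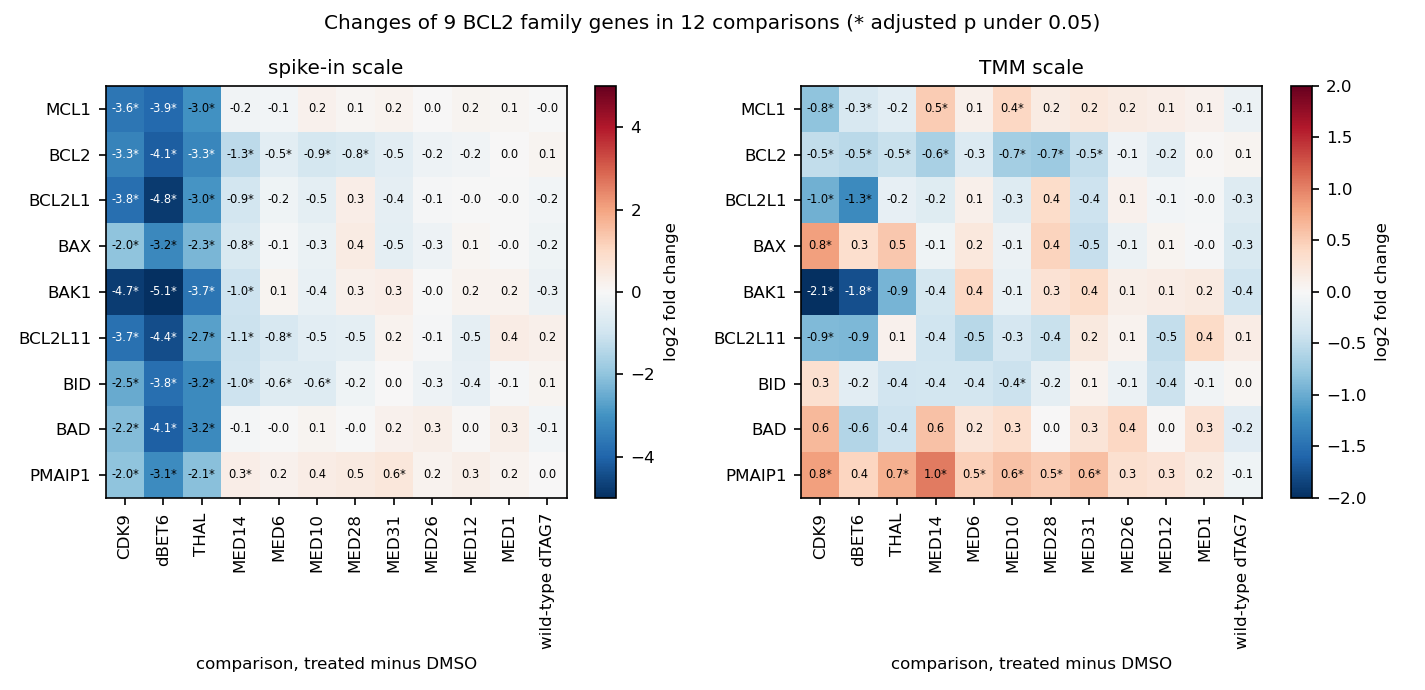
Log2 fold changes of the 9 genes (rows) in the 12 comparisons (columns, treated minus DMSO of the same line), on the spike-in scale (left) and with TMM (right). Blue is lower and red is higher in the treated arm, an asterisk marks an adjusted p under 0.05, and the colour range differs between the panels. PMAIP1 is positive in all 8 Mediator lines on both scales and BCL2 has the most called falls, 7 of 12 on each scale.

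MCL1 (ENSG00000143384, chr1:150574551-150579738 on hg38, minus strand) fell in 3 comparisons and was not called in any Mediator line on the spike-in scale. With dTAG7 in the CDK9 line it had 17.7, 14.0 and 21.97 CPM, against 233, 231 and 213 CPM with DMSO. With dBET6 it had 11.97, 15.1 and 18.7 CPM and with THAL-SNS-032 28.1, 22.9 and 33.9 CPM, against 207, 250 and 219 CPM in wild-type DMSO. The treated and DMSO libraries lay far apart in all 3. The changes were -3.63 ± 0.16 in the CDK9 line (adjusted p 4.47e-30), -3.89 ± 0.16 with dBET6 (adjusted p 2.16e-32) and -3.01 ± 0.15 with THAL-SNS-032 (adjusted p 1.13e-27). That left 8.07%, 6.76% and 12.4% of the DMSO level, and the median log2 change over all genes was -2.93, -3.67 and -2.86. A lower fold change than that of MCL1 was seen in 26% of genes in the CDK9 line, 40% with dBET6 and 40.2% with THAL-SNS-032.

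Set against the bulk of transcripts, MCL1 was still lower in the CDK9 line, while its dBET6 call depended on the scaling. With TMM the change was -0.80 ± 0.10 in the CDK9 line (adjusted p 2.03e-09), -0.32 ± 0.10 with dBET6 (adjusted p 0.00893, but -0.16 and 0.200 with median-of-ratios scaling) and -0.22 ± 0.09 with THAL-SNS-032 (adjusted p 0.0716, not called). Of all genes, 27.1% in the CDK9 line and 23.6% with dBET6 were called lower on that scale. The effect in the CDK9 line minus that of THAL-SNS-032 was -0.62 ± 0.21 on the spike-in scale (adjusted p 0.0918, not called) and -0.58 with TMM (adjusted p 0.00791), and 2.23% and 3.66% of genes were called lower in that difference. The lines and compounds differ, and the 2 ways of targeting CDK9 were each given at 1 dose. Between dBET6 and THAL-SNS-032, MCL1 was lower with dBET6 by -0.88 ± 0.16 (adjusted p 1.13e-05), in a contrast where 53.4% of all genes were called lower, and with TMM the difference was -0.10 (adjusted p 0.705).

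In the Mediator lines the changes of MCL1 ran from -0.17 in MED14 to 0.21 in MED10. With dTAG7 in the MED14 line it had 185, 187 and 176 CPM, against 194, 207 and 216 CPM with DMSO, so the arms did not overlap although the change of -0.17 ± 0.13 was not called (adjusted p 0.245). The median gene changed by -0.69 there, and 84.5% of genes had a lower fold change than MCL1. In the MED10 line MCL1 had 232, 261 and 238 CPM with dTAG7, against 208, 228 and 193 CPM with DMSO, a change of 0.21 ± 0.13 (adjusted p 0.255). In the MED31 line it had 328, 339 and 341 CPM with dTAG7, against 321, 276 and 295 CPM with DMSO, a change of 0.18 ± 0.13 (adjusted p 0.555). All treated libraries lay above their DMSO libraries in MED10 and MED31, and the arms overlapped in the MED6, MED28, MED1, MED26 and MED12 lines.

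With TMM MCL1 was higher in the MED14 line, at 0.51 ± 0.08 (adjusted p 1.16e-06), and in the MED10 line, at 0.42 ± 0.08 (adjusted p 0.000118), where 13.2% and 8.02% of genes were called higher. Whether the effect of dTAG7 differs among the 8 Mediator lines was asked with an F test, which did not call MCL1 on the spike-in scale (adjusted p 0.384, with 46.2% of genes called) and called it with TMM (adjusted p 0.0266, with 12.4% called). The effect in the MED14 line exceeded that in the CDK9 line by 3.46 ± 0.20 on the log2 scale (adjusted p 1.35e-22), a contrast in which 88.3% of genes were called higher, and by 1.31 with TMM (adjusted p 6.27e-12, 20.1% called higher).

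**Figure D2:**
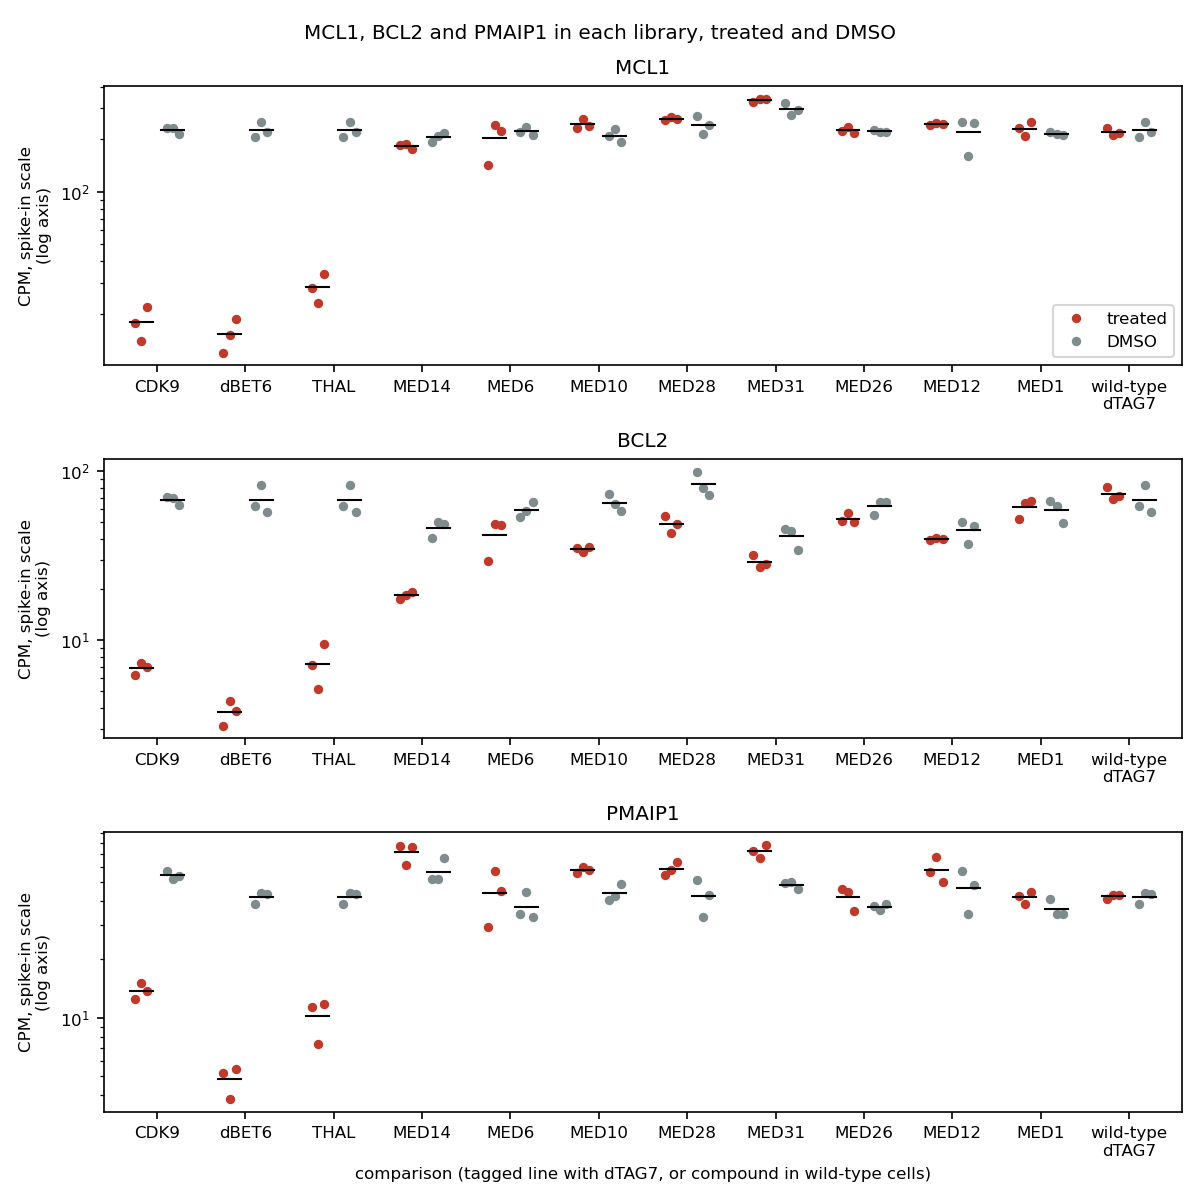
CPM on the spike-in scale (log axis) of MCL1, BCL2 and PMAIP1 in each library of the 12 comparisons, treated libraries (red) left of the DMSO libraries of the same line (grey), with a bar at each mean. Points are replicates A, B and C from left to right, and the wild-type DMSO libraries appear in 3 columns. No MCL1 change is called in a Mediator line, BCL2 is lower in several of them, and all 3 genes are far lower in the first 3 comparisons.

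Ordered by mean CPM over the 22 groups, MCL1 was lowest with dBET6 (15.3 ± 3.36 CPM, SD, n = 3), then in the CDK9 line with dTAG7 (17.9 ± 4.005), whose libraries overlapped those of dBET6, and then with THAL-SNS-032 (28.3 ± 5.48). The next group was the MED14 line with dTAG7 at 183 ± 5.75 CPM. From there to the MED12 line with dTAG7 (245 ± 2.74 CPM), each of 16 groups overlapped its neighbour in the order. The MED28 line with dTAG7 (261 ± 4.28 CPM) and the MED31 line with DMSO (297 ± 22.8 CPM) and with dTAG7 (336 ± 6.81 CPM) followed, each apart from the next.

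BCL2 (ENSG00000171791, chr18:63123346-63320128, minus strand), the founding survival gene of the family, fell in 4 Mediator lines. In the MED14 line it had 17.5, 18.7 and 19.4 CPM with dTAG7, against 40.4, 49.9 and 48.6 CPM with DMSO. In the MED10 line it had 35.3, 33.1 and 35.9 CPM with dTAG7, against 73.1, 63.8 and 58.6 CPM with DMSO. In the MED28 line it had 54.8, 43.3 and 48.9 CPM with dTAG7, against 99.2, 80.1 and 72.7 CPM with DMSO. The arms were apart in each of the 3 lines. The changes were -1.33 ± 0.17 in MED14 (adjusted p 1.07e-09), -0.89 ± 0.16 in MED10 (adjusted p 2.00e-05) and -0.78 ± 0.15 in MED28 (adjusted p 0.000437). In MED28, 2.89% of genes had a lower fold change, in MED10 6.98% and in MED14 13.1%.

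In the MED6 line BCL2 had 29.5, 48.9 and 48.0 CPM with dTAG7, against 53.7, 58.3 and 66.2 CPM with DMSO, and fell by 0.52 ± 0.16 on the log2 scale (adjusted p 0.0148). Without dTAG7 replicate A, the library that stood apart, the change was -0.31 (adjusted p 0.259), and without DMSO replicate C it was -0.43 (adjusted p 0.104), so this call rests on those libraries. In the MED31 line BCL2 had 31.8, 27.3 and 28.3 CPM with dTAG7, against 45.9, 44.4 and 34.2 CPM with DMSO, and its change of -0.51 ± 0.16 was not called (adjusted p 0.0661). Every dTAG7 library was below every DMSO library there, and leaving out DMSO replicate C gave -0.63 (adjusted p 0.0360).

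BCL2 remained lower with TMM in MED14 (-0.64 ± 0.13, adjusted p 7.94e-05), MED10 (-0.68 ± 0.12, adjusted p 1.89e-05) and MED28 (-0.73 ± 0.11, adjusted p 3.82e-06), and it was also called in MED31 (-0.48 ± 0.12, adjusted p 0.0125) but not in MED6 (-0.27 ± 0.12, adjusted p 0.165). Of all genes, 16.6% in MED14, 9.9% in MED10, 4.36% in MED28 and 3.04% in MED31 were called lower on that scale. The dTAG7 effect on BCL2 differed among the 8 Mediator lines on both scales (F test, adjusted p 2.37e-05 and, with TMM, 0.000631). That test called 46.2% of genes on the spike-in scale and 12.4% with TMM. It also called BCL2L11 and BID on the spike-in scale (adjusted p 0.00386 and 0.00724), and PMAIP1 (adjusted p 0.00975) and MCL1 with TMM. Against the effect of dTAG7 in wild-type cells, the difference for BCL2 was -1.47 ± 0.23 in MED14 (adjusted p 2.08e-07), -1.04 ± 0.22 in MED10 (adjusted p 0.000486), -0.92 ± 0.21 in MED28 (adjusted p 0.0081) and -0.66 ± 0.22 in MED6 (adjusted p 0.0368). Of all genes 57.1%, 14.1%, 1.82% and 10.9% were called lower in these 4 differences. In the CDK9 line the same difference was called lower for all 9 members and for 93.9% of all genes.

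With CDK9 or BET proteins targeted, BCL2 fell in all 3 comparisons. It had 6.22, 7.39 and 6.98 CPM with dTAG7 in the CDK9 line, against 70.4, 69.5 and 62.9 CPM with DMSO. It had 3.12, 4.38 and 3.82 CPM with dBET6 and 7.13, 5.14 and 9.53 CPM with THAL-SNS-032, against 62.3, 82.5 and 57.1 CPM in wild-type DMSO. No treated library overlapped a DMSO library. The changes of -3.33 ± 0.19, -4.12 ± 0.20 and -3.25 ± 0.18 left 9.97%, 5.75% and 10.5%, and with TMM BCL2 was called lower in all 3, at -0.50, -0.55 and -0.45 (adjusted p 0.00606, 0.00813 and 0.0159). Of all genes 27.1%, 23.6% and 16.2% were called lower on that scale. Median-of-ratios scaling called no member lower with dBET6 or THAL-SNS-032, so the BCL2 calls there depended on the scaling.

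BCL2L1 (ENSG00000171552, chr20:31664452-31723989, minus strand) encodes the survival protein BCL-XL. It fell in the MED14 line, with 12.8, 12.9 and 13.8 CPM with dTAG7, against 22.6, 26.8 and 25.8 CPM with DMSO, a change of -0.93 ± 0.26 (adjusted p 0.00141) with arms apart. In the other 7 Mediator lines it ran from -0.47 in MED10 to 0.33 in MED28 and was not called, although leaving out dTAG7 replicate A in MED10 gave -0.81 (adjusted p 0.0493). After dTAG7 in the CDK9 line 19, 2 and 11 counts were left (2.04, 0.821 and 2.84 CPM, against 29.9, 21.3 and 33.8 CPM with DMSO), and with dBET6 5, 6 and 5 counts. The fitted changes were -3.78 ± 0.34 and -4.79 ± 0.37, and with THAL-SNS-032 -2.95 ± 0.31, all called. With TMM BCL2L1 was lower in the CDK9 line (-0.96 ± 0.41, adjusted p 0.0472) and with dBET6 (-1.27 ± 0.51, adjusted p 0.0376) and was not called with THAL-SNS-032 or in any Mediator line. The dBET6 call was lost with median-of-ratios scaling. In the CDK9 line that scaling called 4 members lower, against 5 with TMM.

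BAX (ENSG00000087088, chr19:48954815-48961798, plus strand), a pore-former that waits in the cytosol, was uneven between replicates. With dTAG7 in the CDK9 line it had 118, 15 and 54 counts (12.7, 6.16 and 14.0 CPM), against 61, 99 and 201 counts (43.4, 39.1 and 55.7 CPM) with DMSO. With dBET6 it had 16, 74 and 12 counts (2.78, 10.5 and 2.41 CPM), against 168, 96 and 214 counts (52.0, 41.5 and 63.6 CPM) in wild-type DMSO. Replicate B was the highest of the dBET6 libraries and the lowest of the dTAG7 libraries of the CDK9 line, and the arms were apart in both comparisons. BAX fell by 2.01 ± 0.31 on the log2 scale in the CDK9 line (adjusted p 3.56e-08), by 3.24 ± 0.32 with dBET6 (adjusted p 3.41e-14) and by 2.28 ± 0.30 with THAL-SNS-032 (adjusted p 4.42e-10). Of all genes 85.7% had a lower fold change than BAX in the CDK9 line, and with TMM BAX was higher there (0.83 ± 0.35, adjusted p 0.0444), with overlapping arms. BAX fell in the MED14 line by 0.77 ± 0.30 (adjusted p 0.0200). Without DMSO replicate B or without dTAG7 replicate A the adjusted p was 0.0591 or 0.0831, and with limma on the loess-normalized values 0.0544.

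BAK1 (ENSG00000030110, chr6:33572547-33580293, minus strand), the pore-former that sits in the mitochondrial membrane, had few counts. It had 2, 1 and 1 counts with dTAG7 in the CDK9 line, against 6, 22 and 32 with DMSO, and 1, 0 and 2 with dBET6 and 2, 3 and 3 with THAL-SNS-032, against 26, 19 and 16 in wild-type DMSO. Summed over replicates and scaled to spike-ins, 3.22% was left in the CDK9 line (exact 95% interval for counting error only, 0.849 to 8.68%), 2.46% with dBET6 (0.493 to 7.53%) and 7.45% with THAL-SNS-032 (3.08 to 15.6%). Of all genes 5.98% had a lower fold change than BAK1 in the CDK9 line, and the difference between BAK1 and BAX was not tested. With TMM BAK1 was called lower in the CDK9 line (-2.06 ± 0.62, adjusted p 0.00484) and with dBET6 (-1.76 ± 0.71, adjusted p 0.0411). The dBET6 call of BAK1 was lost with median-of-ratios scaling. With dTAG7 in the MED14 line BAK1 had 2.95, 3.83 and 3.14 CPM, against 4.46, 8.77 and 6.37 CPM with DMSO, and fell by 1.04 ± 0.33 (adjusted p 0.00568). This call was lost without DMSO replicate B, the highest of its group, at -0.75 (adjusted p 0.0887).

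BCL2L11 (ENSG00000153094, chr2:111119378-111168447, plus strand) encodes BIM, a BH3-only activator that binds all survival proteins. It fell in the MED14 line, with 9.65, 13.4 and 9.19 CPM with dTAG7, against 20.6, 23.1 and 21.99 CPM with DMSO, a change of -1.08 ± 0.25 (adjusted p 0.000198) with arms apart. In the MED6 line it had 5.51, 16.2 and 13.1 CPM with dTAG7, against 25.1, 19.7 and 16.2 CPM with DMSO, a change of -0.81 ± 0.27 (adjusted p 0.0266). Its lowest library there was again dTAG7 replicate A, and without it the change was -0.42 (adjusted p 0.361). Without DMSO replicate A or B the adjusted p was 0.127 or 0.0630. The changes in the CDK9 line, with dBET6 and with THAL-SNS-032 were -3.71 ± 0.32, -4.42 ± 0.37 and -2.70 ± 0.31. Treated libraries held only 5 to 20, 3 to 7 and 11 to 19 counts of BCL2L11 in these comparisons. With TMM only the CDK9 line was called among the 12 comparisons (-0.88 ± 0.30, adjusted p 0.0130). The non-coding gene MIR4435-2HG overlaps exons of BCL2L11 on the other strand and had 98.5 CPM in wild-type DMSO. Whether the counting used strand is not given in the sources used here, so reads of the pair cannot be told apart. Exons of MCL1 overlap ADAMTSL4-AS1 on the same strand. Exons of BCL2L1 and BAK1 overlap ABALON and GGNBP1 on the other strand. ADAMTSL4-AS1, ABALON and GGNBP1 were not among the counted genes.

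BID (ENSG00000015475, chr22:17734138-17774770, minus strand), the BH3-only protein that caspase-8 cleaves to link death receptors with mitochondria, fell in 3 Mediator lines. In the MED14 line it had 14.8, 18.7 and 21.0 CPM with dTAG7, against 35.7, 35.5 and 40.5 CPM with DMSO, a change of -1.05 ± 0.19 (adjusted p 5.37e-06). In the MED10 line it had 33.3, 33.6 and 23.5 CPM with dTAG7, against 37.9, 62.1 and 38.8 CPM with DMSO, a change of -0.64 ± 0.19 (adjusted p 0.00911). In the MED6 line it had 21.2, 38.2 and 28.1 CPM with dTAG7, against 50.8, 43.3 and 42.4 CPM with DMSO, a change of -0.64 ± 0.19 (adjusted p 0.0127). The arms were apart in all 3 lines, but only the MED14 call held without each library, and limma on the loess-normalized values called neither MED10 (adjusted p 0.0863) nor MED6 (0.0919). Leaving out DMSO replicate B in MED10 gave -0.37 (adjusted p 0.239) and dTAG7 replicate C -0.47 (adjusted p 0.124). In MED6, leaving out dTAG7 replicate A gave -0.43 (adjusted p 0.178) and DMSO replicate A -0.56 (adjusted p 0.0606). The changes in the CDK9 line, with dBET6 and with THAL-SNS-032 were -2.51 ± 0.22, -3.76 ± 0.23 and -3.17 ± 0.22, and with TMM only the MED10 line was called lower (-0.44 ± 0.16, adjusted p 0.0417).

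BAD (ENSG00000002330, chr11:64269830-64284704, minus strand), a BH3-only protein that binds BCL2 and BCL-XL, was not called in any Mediator line on either scale. Its changes there ran from -0.09 in MED14 to 0.30 in MED1 on the spike-in scale, with treated and DMSO libraries overlapping in all 8. It fell in the CDK9 line (-2.17 ± 0.33), with dBET6 (-4.06 ± 0.40) and with THAL-SNS-032 (-3.18 ± 0.37), where 1 to 6 counts were left in each compound-treated library and 6 to 21 in the CDK9 line. Of all genes 81.2% had a lower fold change than BAD in the CDK9 line. Exons of GPR137 on the other strand overlap BAD, and GPR137 had 4.79 CPM in wild-type DMSO.

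PMAIP1 (ENSG00000141682, chr18:59899948-59904306, plus strand) was the only member called higher by a treatment on the spike-in scale. In the MED14 line it had 76.4, 61.3 and 76.2 CPM with dTAG7, against 51.6, 51.9 and 66.3 CPM with DMSO, a change of 0.35 ± 0.15 (adjusted p 0.0415). In the MED31 line it had 72.8, 66.5 and 77.6 CPM with dTAG7, against 49.2, 50.3 and 46.1 CPM with DMSO, a change of 0.57 ± 0.16 (adjusted p 0.0256). The arms overlapped in MED14 and were apart in MED31. In MED14 the gene was no longer called once any 1 of 4 libraries was left out (A and B of the DMSO arm, A and C of the dTAG7 arm), with changes of 0.29 to 0.30 and adjusted p of 0.126 to 0.150. In MED31 it was no longer called without any of 5 of its 6 libraries, all but dTAG7 replicate B, with changes of 0.52 to 0.60 and adjusted p of 0.0783 to 0.118. Limma on the deposited loess-normalized values called neither (adjusted p 0.0924 in MED14 and 0.117 in MED31).

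PMAIP1 was positive in all 8 Mediator lines, from 0.18 in MED26 to 0.57 in MED31, and the treated libraries also lay above the DMSO libraries in MED10 (0.38 ± 0.16, adjusted p 0.0919) and MED28 (0.46 ± 0.17, adjusted p 0.0992). With TMM it was called higher in 5 Mediator lines. These were MED14 (1.04 ± 0.12, adjusted p 4.01e-10), MED31 (0.60 ± 0.12, adjusted p 0.00144), MED10 (0.58 ± 0.13, adjusted p 0.000941), MED28 (0.51 ± 0.13, adjusted p 0.0106) and MED6 (0.47 ± 0.14, adjusted p 0.0283). Of all genes 13.2%, 1.43%, 8.02%, 2.03% and 2.8% were called higher in those lines on that scale. A lower fold change than that of PMAIP1 on the spike-in scale was seen in 95% of genes in MED14 and 95.7% in MED31. In wild-type cells with dTAG7 it had 40.8, 43.0 and 43.0 CPM, against 38.4, 44.1 and 43.4 CPM with DMSO. Against that wild-type effect, PMAIP1 was not called in any Mediator line on the spike-in scale.

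With CDK9 or BET proteins targeted, PMAIP1 fell, and 85.8%, 74.6% and 88.5% of genes had a lower fold change in the CDK9 line, with dBET6 and with THAL-SNS-032. With dTAG7 in the CDK9 line it had 12.4, 15.2 and 13.7 CPM, against 56.9, 52.1 and 53.8 CPM with DMSO. It had 5.21, 3.81 and 5.43 CPM with dBET6 and 11.4, 7.36 and 11.8 CPM with THAL-SNS-032, against 38.4, 44.1 and 43.4 CPM in wild-type DMSO. The arms were apart in each, with 24.9%, 11.4% and 23.6% left (changes of -2.01 ± 0.18, -3.13 ± 0.21 and -2.08 ± 0.19). With TMM it was called higher in the CDK9 line (0.82 ± 0.16, adjusted p 1.33e-05, 20.6% of genes called higher) and with THAL-SNS-032 (0.71 ± 0.16, adjusted p 0.000617, 13.6% called higher), and not with dBET6 (0.43 ± 0.19, adjusted p 0.0650). Median-of-ratios scaling did call PMAIP1 higher with dBET6 (0.58, adjusted p 0.0117). The direction of PMAIP1 in these 3 comparisons thus depends on the scale, lower against spike-ins and higher or not called against the bulk of transcripts.

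PMAIP1 and BCL2 lie on the same chromosome and had changes of opposite sign in every Mediator line but MED1, and their promoters are printed to set their base composition side by side. RefSeq promoters (GRCh38.p14, 250 bases before to 50 after the annotated start) were available for 8 members. Searched on both strands were the TATA box TATAAA, the GC box GGGCGG, the E-box CACGTG, the CCAAT box CCAAT and the cyclic AMP response core TGACGT, which do not overlap in the windows shown. They occur in 11.5%, 44.9%, 7.3%, 34.6% and 8% of 35097 promoters of this length. Capitals mark matches.
PMAIP1, chr18:59899746-59900045, plus strand: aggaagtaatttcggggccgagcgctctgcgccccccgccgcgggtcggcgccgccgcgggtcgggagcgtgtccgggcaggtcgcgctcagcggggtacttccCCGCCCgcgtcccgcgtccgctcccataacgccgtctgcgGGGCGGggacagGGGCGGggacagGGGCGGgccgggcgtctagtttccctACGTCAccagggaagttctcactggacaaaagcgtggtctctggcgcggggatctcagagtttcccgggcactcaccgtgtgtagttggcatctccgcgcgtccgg
BCL2, chr18:63319720-63320019, minus strand: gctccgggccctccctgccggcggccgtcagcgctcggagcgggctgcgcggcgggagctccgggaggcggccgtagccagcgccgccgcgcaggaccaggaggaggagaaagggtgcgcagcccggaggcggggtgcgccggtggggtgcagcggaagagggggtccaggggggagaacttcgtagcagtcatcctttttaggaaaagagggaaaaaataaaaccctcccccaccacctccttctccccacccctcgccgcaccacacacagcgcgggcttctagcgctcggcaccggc
The window of PMAIP1 holds 4 GC boxes and 1 cyclic AMP response core, and that of BCL2 none of the 5 motifs, at 71.3% and 70.7% GC, against a median of 58.7% over all promoters. BAX was the member with the most E-boxes, 4 in its window, and 1 of 2 BCL2L1 windows held TATA boxes. A match or its absence describes these letters only.

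Ratios within a library do not depend on the scale. The log2 ratio of MCL1 to BCL2 counts (each plus 0.5) was 3.39, 3.31 and 3.18 with dTAG7 in the MED14 line, against 2.255, 2.05 and 2.15 with DMSO, a mean difference of 1.14 ± 0.09 (SE, n = 3 each). It was 2.71, 2.97 and 2.72 with dTAG7 in the MED10 line, against 1.504, 1.84 and 1.72 with DMSO, a difference of 1.11 ± 0.13. The difference was 0.89 ± 0.15 in MED28, 0.68 ± 0.16 in MED31, 0.35 ± 0.12 in MED6, 0.35 ± 0.08 in MED12 and 0.26 ± 0.10 in MED26, and treated libraries lay above DMSO libraries in all 7 of these lines. Only in MED1 did they overlap among the Mediator lines (0.04 ± 0.18). In the CDK9 line the ratio was lower, 1.5, 0.90 and 1.64 with dTAG7 against 1.72, 1.73 and 1.76 with DMSO, and with dBET6 and THAL-SNS-032 it overlapped that of wild-type DMSO. No test was run on these ratios.

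**Figure D3:**
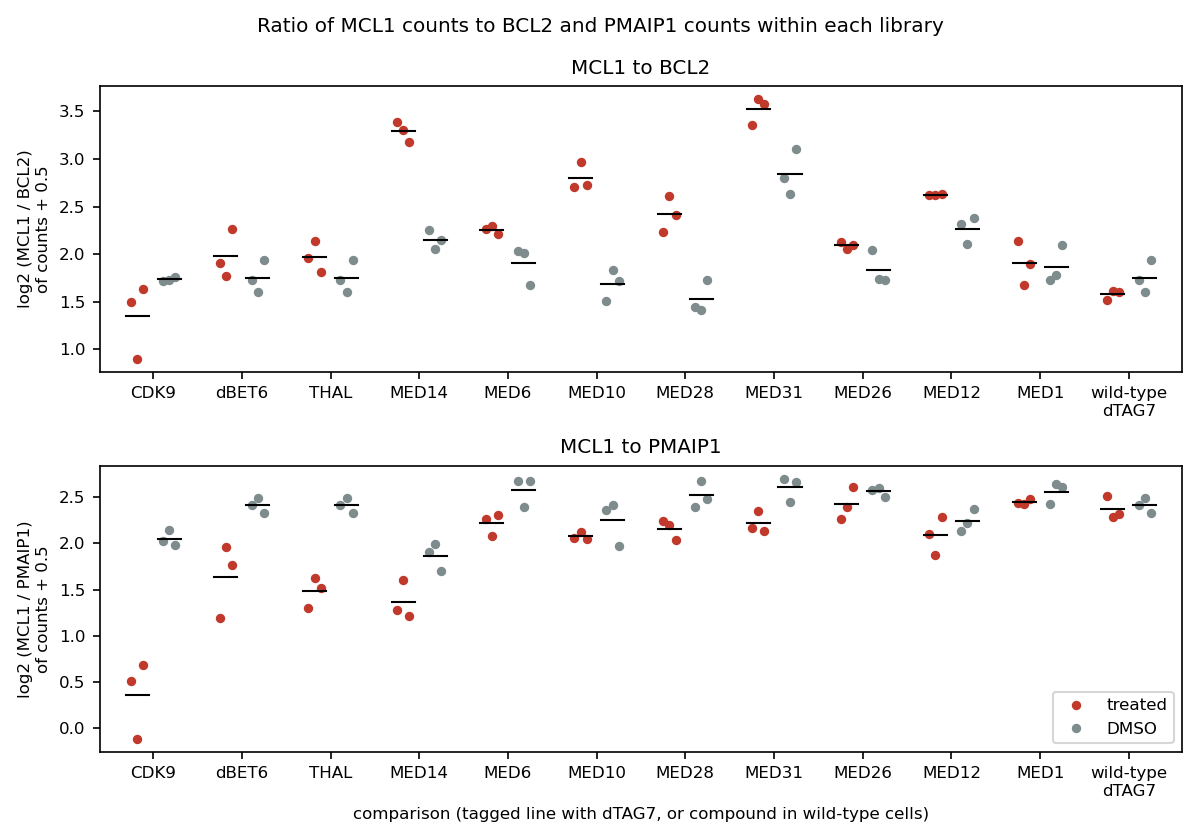
Log2 ratio of MCL1 counts to BCL2 counts (top) and to PMAIP1 counts (bottom), each count plus 0.5, within every library of the 12 comparisons. Treated libraries (red) stand left of the DMSO libraries of the same line (grey), with bars at means. The MCL1 to BCL2 ratio is higher with dTAG7 in 7 of 8 Mediator lines, and the MCL1 to PMAIP1 ratio is lowest with dTAG7 in the CDK9 line.

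The ratio of MCL1 to PMAIP1, a survival protein and the BH3-only protein that binds it, shifted toward PMAIP1. It was 0.51, -0.12 and 0.68 on the log2 scale with dTAG7 in the CDK9 line, against 2.02, 2.14 and 1.99 with DMSO, a difference of -1.70 ± 0.25. The difference was -0.94 ± 0.11 with THAL-SNS-032 and -0.78 ± 0.24 with dBET6, and in the Mediator lines -0.50 ± 0.15 in MED14, -0.39 ± 0.10 in MED31, -0.36 ± 0.12 in MED6 and -0.36 ± 0.10 in MED28. Treated libraries lay below DMSO libraries in these 7 comparisons, and they overlapped in the remaining 5. MCL1 in the CDK9 line also lost ground to BAX (-1.54 ± 0.28), BAD (-1.54 ± 0.44) and BID (-1.22 ± 0.27). Its ratios to BCL2L1, BAK1 and BCL2L11 there changed by 0.25 ± 0.35, 0.49 ± 0.59 and 0.01 ± 0.19, with overlapping libraries. With THAL-SNS-032 the ratios to BAX (-0.71 ± 0.42), BAD (0.08 ± 0.23) and BID (0.15 ± 0.25) overlapped those of DMSO. With dBET6 the ratios to BAX, BAD and BID overlapped too.

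Before treatment the engineered lines already differed from wild-type cells in some members. In DMSO the MED31 line had 65.3, 69.4 and 54.3 CPM of BCL2L1 and the MED12 line 49.1, 52.2 and 40.8 CPM, against 27.3, 19.4 and 29.4 CPM in wild-type cells, differences of 1.29 ± 0.23 (adjusted p 1.73e-05) and 0.88 ± 0.23 (adjusted p 0.00557). BCL2L11 was higher in the MED31 line, at 45.2, 45.5 and 42.7 CPM, against 14.9, 19.9 and 21.7 CPM in wild-type cells (1.24 ± 0.23, adjusted p 4.06e-05). MCL1 was also higher in the MED31 line (0.40 ± 0.13, adjusted p 0.0364, and 0.104 with limma on the loess-normalized values), with 321, 276 and 295 CPM, against 207, 250 and 219 CPM in wild-type cells. These groups did not overlap. BCL2 was lower in DMSO in the MED31 line (-0.68 ± 0.15, adjusted p 0.00111), the MED12 line (-0.57 ± 0.15, adjusted p 0.00815) and the MED14 line (-0.53 ± 0.15, adjusted p 0.0158) than in wild-type cells. With TMM the MED14 value was -0.32 and not called (adjusted p 0.0931). So on the spike-in scale 3 members were called higher in MED31 (6% of all genes) and 1 lower (2.29%), in MED12 1 higher (6.13%) and 1 lower (4.42%), and in MED14 1 lower (8.98%). No member was called in the other 6 lines on the spike-in scale. PMAIP1 was called higher in DMSO in the MED14 line with TMM (0.63, adjusted p 0.000447) and with median-of-ratios scaling (0.61, adjusted p 0.000704). On the TMM scale 2.65% of genes were called higher in that contrast. Culture differences between lines and the tag itself cannot be told apart.

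**Figure D4:**
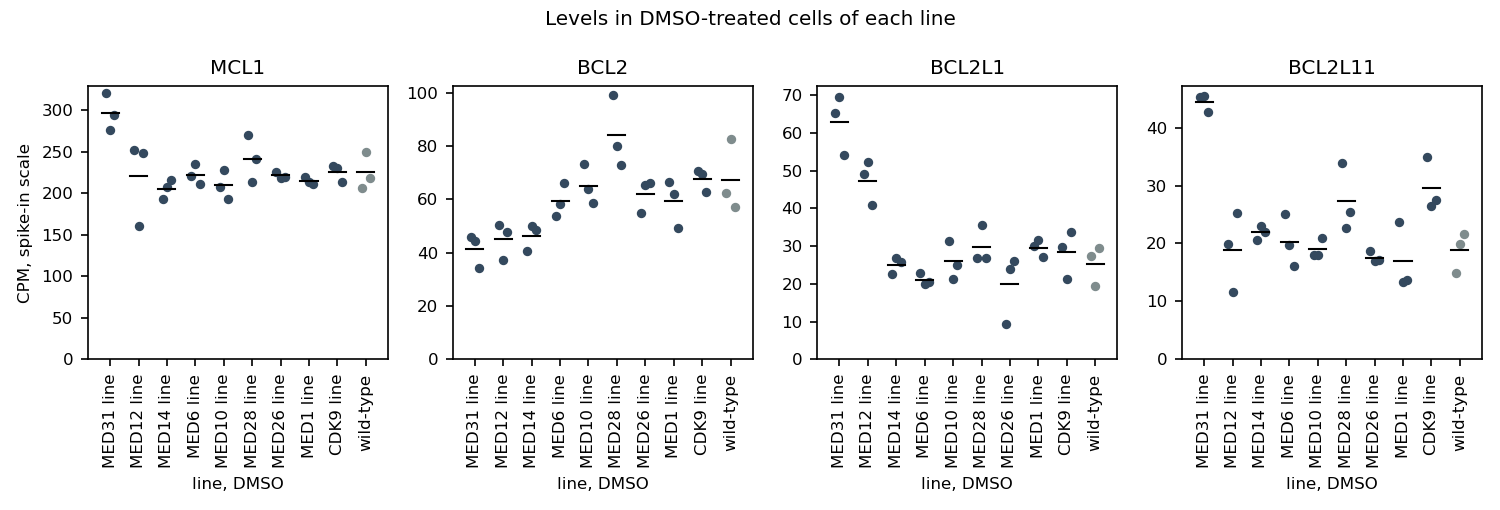
CPM on the spike-in scale of MCL1, BCL2, BCL2L1 and BCL2L11 in DMSO-treated cells of the 9 tagged lines (dark) and of wild-type cells (grey, right), 3 libraries each with a bar at the mean. The MED31 line has the highest BCL2L1, BCL2L11 and MCL1 and the lowest BCL2.

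Across the 22 group means with TMM, the correlation of MCL1 with the other members ran from -0.55 for BAX, -0.49 for BCL2 and -0.42 for BID to 0.46 for BCL2L11, 0.57 for BCL2L1 and 0.61 for BAK1, with BAD at 0.06 and PMAIP1 at 0.13. On the spike-in scale all were between 0.89 and 0.97, where 3 groups with little RNA set the range. The 5 genes most like MCL1 by this measure, among 6876 genes with a mean of at least 20 CPM, were BSDC1 (0.93), AMMECR1 (0.91), TOB2 (0.91), TOR1AIP2 (0.91) and ARID1A (0.91), the last a subunit of a chromatin remodelling complex. On the spike-in scale all 5 were between 0.993 and 0.995. Their changes with TMM in the CDK9 line were -0.43, -0.66, -0.88, -0.73 and -0.50, and in the MED14 line 0.81, 0.59, 0.70, 0.45 and 0.38. The groups share cell lines, and the correlations are descriptions.

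Other genes of the pathway were followed as 7 lists. Of the remaining BH3-only and death members of the family, 7 of 10 were tested, and 7 fell in the CDK9 line (95.3% of all genes called lower), 6 with dBET6 (97.1%), 6 with THAL-SNS-032 (96.2%) and 4 in the MED14 line (63.3%). The list had a median of -0.80 in MED14, where the median of all genes was -0.69. BBC3, the BH3-only protein PUMA, averaged 6.41 CPM with dTAG7 in the MED14 line, against 23.0 CPM with DMSO, a fall of 1.74 ± 0.23 on the log2 scale (adjusted p 1.87e-09), and with TMM it was -1.05 (adjusted p 0.000158). BMF, another BH3-only gene, fell by 4.58 ± 0.51 in the CDK9 line (adjusted p 1.58e-12). It averaged only 0.2945 CPM there with dTAG7, against 7.17 CPM with DMSO, so the size of the fall is imprecise. Of the remaining survival members BCL2L2 and BCL2A1 were tested. BCL2L2 fell by 2.88 ± 0.66 in the CDK9 line, from a low level (0.2941 CPM with dTAG7, against 2.32 CPM with DMSO). BCL2A1 had 0 counts there with dTAG7, against 13 with DMSO, at least 8.98-fold lower when 3 counts over the group are taken as the floor. With dBET6 BCL2A1 had 0 counts, against 7 in wild-type DMSO, at least 4.67-fold lower, and with THAL-SNS-032 1 count, 8.11% of DMSO (exact 95% interval 0.18 to 63.1%).

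All 9 genes of the death receptor arm fell in the CDK9 line (list median -4.34), with dBET6 (-4.60) and with THAL-SNS-032 (-3.38), and 8 of 9 fell in the MED14 line (-0.94). Of all genes 95.3%, 97.1%, 96.2% and 63.3% were called lower there, with medians of -2.93, -3.67, -2.86 and -0.69. With TMM 5, 6, 3 and 3 of the 9 were called lower in those comparisons, where 27.1%, 23.6%, 16.2% and 16.6% of all genes were. TNFRSF1A, the first TNF receptor, averaged 44.8 CPM with dTAG7 in the MED14 line, against 117 CPM with DMSO (-1.41 ± 0.17, adjusted p 3.29e-10), and in the CDK9 line 3.497 CPM with dTAG7, against 103 CPM with DMSO (-5.04 ± 0.25, adjusted p 1.56e-27). RIPK1, a kinase downstream of that receptor, fell by 5.12 ± 0.34 in the CDK9 line (adjusted p 2.36e-21), and TNFRSF10A, a TRAIL receptor, by 1.30 ± 0.14 in the MED14 line (adjusted p 8.21e-12).

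All 9 genes of the apoptosome and caspases fell in the CDK9 line, with dBET6 and with THAL-SNS-032, and 6 fell in the MED14 line (median -0.57) and 4 in MED6. These counts stand beside 95.3%, 97.1%, 96.2%, 63.3% and 18.4% of all genes called lower, and the median of all genes in MED14 was -0.69. In the MED12 line 2 of the 9 were called higher (1.57% of all genes), with a list median of 0.43, against 0.059 for all genes. In the MED10 line 1 was called higher (2.71% of all genes) and 1 lower (19%). CASP2 fell by 1.16 ± 0.13 in the MED14 line (adjusted p 6.06e-11) and changed by -3.99 ± 0.16 in the CDK9 line (adjusted p 3.26e-31), and it was called lower with TMM in both (-0.47 and -1.16). Among the inhibitor of apoptosis proteins and their antagonists 6 of 8 were tested, and 6, 5, 5 and 4 fell in the CDK9, dBET6, THAL-SNS-032 and MED14 comparisons, where 95.3%, 97.1%, 96.2% and 63.3% of all genes were called lower. HTRA2, a mitochondrial protease that counters these inhibitors, fell by 4.06 ± 0.29 in the CDK9 line (adjusted p 5.28e-20). All 7 tested genes that add or remove ubiquitin on MCL1 protein fell in each of those 4 comparisons, with the same shares of all genes called lower (95.3%, 97.1%, 96.2% and 63.3%) and a median of -0.54 in MED14, against -0.69 for all genes. USP13, a deubiquitinase of MCL1, averaged 37.3 CPM with dTAG7 in MED14, against 91.5 CPM with DMSO (-1.30 ± 0.17, adjusted p 4.69e-09). The 3 voltage-dependent anion channels, pores of the outer mitochondrial membrane that BCL2 family proteins bind, also fell in all 4 (95.3%, 97.1%, 96.2% and 63.3% of all genes called lower). Their medians were -2.39, -3.22, -2.57 and -0.92, against -2.93, -3.67, -2.86 and -0.69 for all genes.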

How the data were processed

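The authors deposited read counts for genes and spike-ins, which were used as they stand. HTSeq 0.6.0, STAR 2.5.2b and bedtools 2.26.0 are listed with hg38 in the submitters' processing notes, without settings. Loess-normalized signal values, deposited by the authors in a second table, served 1 alternative. Per the labels' protocols, each lysate received the same amount of a synthetic spike-in mix, here 37 ERCC and 7 SIRV rows, and 3′ QuantSeq libraries were read in single 50 bp reads. GENCODE 29 named 13297 of 13331 genes. Genes were fitted with edgeR 4.0.16 (R 4.3.3) with its quasi-likelihood test, 22 group means from 66 libraries leaving 44 residual degrees of freedom, after filterByExpr at its defaults (minimum count 10). Library sizes were spike-in totals multiplied by 128.4, the mean endogenous to spike-in ratio in wild-type DMSO. TMM fits (12973 genes) ran in parallel. The SE is the fold change over the square root of F.

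The 9 members, the gene lists and the comparisons were chosen with earlier results of these data known. All members were named in every comparison. Of each list the rule allowed up to 2 falls and 2 rises in the CDK9, MED14, dBET6 and THAL-SNS-032 comparisons, and part of these is given. Alternatives were median-of-ratios scaling, 2 other filters, a replicate block, fits restricted to 1 comparison, limma 3.58.1 on log2 of the signal plus 1, DESeq2 1.42.0, and leaving out each library. The fits were tested on simulated data with known changes. In the MED14 comparison they called 70.5% of 95 simulated 2-fold changes and 28.1% of 96 simulated 1.5-fold changes, among 11879 genes. In the real MED14 comparison 65% of genes were called. The adjusted p depends on how many genes change, so these shares may not carry over to it. Changes of these sizes can go uncalled. Counting intervals cover counting error only.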

Additional observations from a re-analysis of the deposited data

Results flagged for a closer look

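The effect of dTAG7 in a tagged line differed from its effect in wild-type cells, by edgeR's test of the difference itself on the spike-in scale, for 18 pairs of gene and line. Values are the log2 effect in the tagged line minus the log2 effect in wild-type cells, and they share the wild-type libraries. Of all genes 93.9% were called lower in this difference in the CDK9 line, 57.1% in MED14, 14.1% in MED10, 10.9% in MED6 and 1.82% in MED28, so 12 of the 18 pairs lie in 2 lines where most genes were called. In the CDK9 line the difference was -3.60 for MCL1, -3.47 for BCL2, -3.63 for BCL2L1, -1.80 for BAX, -4.43 for BAK1, -3.95 for BCL2L11, -2.64 for BID, -2.05 for BAD and -2.02 for PMAIP1. In the MED14 line it was -1.47 for BCL2, -1.32 for BCL2L11 and -1.18 for BID. In the MED6 line it was -0.66 for BCL2, -1.04 for BCL2L11 and -0.77 for BID, where the library that stood apart is 1 of the 3 treated ones. The BCL2L11 difference in MED6 was not called with the replicate block (adjusted p 0.0557) or without a filter (0.0514). Limma on the loess-normalized values called none of the 3 MED6 differences, BID in MED10 and BCL2 in MED28 (adjusted p 0.0507 to 0.190). The difference was -0.92 for BCL2 in the MED28 line, and -1.04 for BCL2 and -0.77 for BID in the MED10 line.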

How the results depend on the processing

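DESeq2, no filter on low counts and a minimum mean of 5 CPM kept the call of all 108 changes with treatment. Direction, compared only for called values, was kept too. The replicate block kept these calls and directions as well, and 107 of 108 differences between effects kept their call under it. Letters A, B and C did not pair the libraries (in 0 of 12 comparisons were all 3 correlations over 0.1, range -0.22 to 0.06). Scaling changed the most calls. With median-of-ratios scaling and with TMM, 23 and 16 of the 108 changes with treatment kept their direction but lost their call, as did 19 and 18 of the 108 differences. Sign reversals and all altered MCL1 results among treatments and differences follow, median-of-ratios scaling first and then TMM. Calls lower numbered 8 and 15, and calls higher 11 and 10, against 39 and 2 with spike-ins. In the CDK9 line BAD stood at 0.76 and 0.65, BAX at 0.94 and 0.83, BID at 0.43 and 0.32, and PMAIP1 at 0.94 and 0.82. Minus the wild-type dTAG7 effect these became 0.99 and 0.87 for BAD, 1.26 and 1.14 for BAX, 0.40 and 0.28 for BID, and 1.02 and 0.90 for PMAIP1. The MED14 minus CDK9 effect was -0.14 and -0.060 for BAD, -0.996 and -0.92 for BAX, -0.22 and -0.14 for BCL2, and -0.76 and -0.68 for BID. With dBET6, BAX was at 0.49 and 0.33 and PMAIP1 at 0.58 and 0.43. With THAL-SNS-032, BAX was at 0.62 and 0.54, BCL2L11 at 0.16 and 0.081, and PMAIP1 at 0.78 and 0.71. MCL1 reversed in MED14 (0.55 and 0.51, and minus the wild-type effect 0.68 and 0.63) and was called in MED10 (0.44 and 0.42, and minus the wild-type effect 0.56 and 0.54) and in the Mediator F test (F 4.29 and 3.60). MCL1 lost its call with THAL-SNS-032 (-0.14 and -0.22), in dBET6 minus THAL-SNS-032 (-0.021 and -0.10) and, with median-of-ratios scaling, with dBET6 (-0.16). The CDK9 line minus THAL-SNS-032 effect on MCL1 was called with both (-0.54 and -0.58) and with limma (-0.65). Fitted on its own libraries, MCL1 was called in MED14 (-0.17) and MED10 (0.21), and 5 values were called higher in all, against 0 with limma. Such fits lost the MED6 calls of BCL2, BCL2L11 and BID (adjusted p 0.168 to 0.251). Limma lost 7 calls with treatment, those 3 (adjusted p 0.0682 to 0.0999), BAX in MED14 (0.0544), BID in MED10 (0.0863) and PMAIP1 in MED14 and MED31. Leaving out single libraries gave 36 to 40 calls lower and 1 to 2 higher. Scaling causes the shifts by construction, since TMM sets the bulk of genes to no change. Low counts of BAK1, BAD, BCL2L1 and BCL2L11 in treated cells limit the precision there.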
